A study of Mus musculus with 20 samples.

Results

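The chromatin around 7 mesoderm and primitive streak genes was examined in mouse embryonic stem (ES) cells: T (brachyury), Mixl1, Mesp1, Tbx6, Gsc, Evx1 and Msgn1. The assay was ATAC-seq: a transposase cuts DNA that is not packed away, and regions rich in cuts are called as peaks. Every peak of the merged list that overlapped 1 of the 7 genes or lay within 50000 bp of it was taken, which gave 76 of 102373 listed peaks. Peaks were taken by position only, but the genes were chosen with earlier results of these data known. All 7 genes had peaks, no peak was shared between them, and each gene had at least 1 peak within 1000 bp of its transcription start site (TSS).

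The cells were ZHBTc4 mouse ES cells, in which doxycycline (dox) turns off the OCT4 gene. They carried lentiviral SNAP-MD-OCT4 or SNAP-MD*-OCT4, both driven by the PGK promoter at less than the wild-type OCT4 level. The mitotic degron of MD-OCT4 strongly lowers OCT4 at the passage from mitosis to G1 but does not remove all of it. The mutated degron of MD*-OCT4 is inactive. All cells also carried YPet-MD, and all were grown in serum and LIF with the GSK3 inhibitor CHIR99021 and the MEK inhibitor PD184352. The lines were sorted pools and not single clones. After 40 h in dox, Hoechst and YPet signals were used to sort cells of each construct by phase (early G1, late G1, S, or late S with G2), with 2 libraries per group and 16 in all. The other 4 libraries, unsorted cells of each construct without dox, did not enter the merged list.

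The list gives only where peaks of the 16 dox-treated libraries were merged. It holds no height and no value per library, so depth is unknown, replicate error cannot be given, and MD-OCT4 could not be compared with MD*-OCT4 in any phase. Whether a region was called in 1 library or in all 16 cannot be read from it. Merging also sets widths, since each edge of a merged peak is the outermost edge called in any library. Absence from the list means no retained call and does not measure closed chromatin. The values below are therefore descriptions of 1 list, set beside the same measure over all listed peaks or all 21938 protein-coding genes, and carry no test. Of 8 marker genes of ES cells, 7 had a peak within 1000 bp of a TSS, compared with 70.4% of all protein-coding genes. Nanog had none, although 22 listed peaks overlapped it or lay within 50000 bp of it.

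The primitive streak is the site where epiblast cells leave the surface of the embryo to form mesoderm and endoderm. Wnt signalling through TCF/LEF factors and Nodal signalling through SMAD and FOXH1 factors are known to turn on its genes, and ES cells generally keep them silent or low until they leave pluripotency. T encodes the founding T-box factor and marks the streak and the early mesoderm. Mixl1 is a paired-type homeobox factor of the streak, Gsc a homeobox factor of its anterior end and Evx1 an even-skipped-type homeobox factor of its posterior part. Mesp1 is a basic helix-loop-helix factor of the earliest cardiovascular mesoderm, whereas Tbx6, a T-box factor, and Msgn1, a basic helix-loop-helix factor, act in presomitic mesoderm. In GENCODE M21 (GRCm38), T is at chr17:8434423-8442496 and Tbx6 at chr7:126781483-126785560, and Evx1 is at chr6:52313498-52318378, all on the plus strand. On the minus strand, Mixl1 is at chr1:180693043-180697034, Mesp1 at chr7:79792241-79793788, Gsc at chr12:104471209-104473330 and Msgn1 at chr12:11208360-11208972. RNA was not analysed here, and a peak does not show that a gene is transcribed.

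Promoter sequences of 6 of the 7 genes were found in RefSeq (GRCm38.p6). There was no entry for Mixl1. Those whose promoter overlapped a peak are printed because they show where the merged peak stops relative to the annotated start of transcription. Each runs 5′ to 3′ in the direction of the gene and ends 1 base before the GENCODE start, and capitals mark bases inside a listed peak.
T, chr17:8434173-8434422, plus strand: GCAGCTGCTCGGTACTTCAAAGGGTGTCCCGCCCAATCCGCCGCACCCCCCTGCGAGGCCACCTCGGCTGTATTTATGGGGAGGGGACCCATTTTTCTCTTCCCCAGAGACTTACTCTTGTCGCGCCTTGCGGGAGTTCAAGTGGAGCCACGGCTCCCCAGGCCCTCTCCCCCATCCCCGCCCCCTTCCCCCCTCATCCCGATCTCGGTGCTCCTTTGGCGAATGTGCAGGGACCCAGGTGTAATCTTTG
Gsc, chr12:104473331-104473486, minus strand: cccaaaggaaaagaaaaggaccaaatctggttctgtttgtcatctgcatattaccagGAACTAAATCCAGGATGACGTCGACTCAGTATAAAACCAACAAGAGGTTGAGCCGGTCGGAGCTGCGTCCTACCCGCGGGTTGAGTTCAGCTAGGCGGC
Evx1, chr6:52313248-52313497, plus strand: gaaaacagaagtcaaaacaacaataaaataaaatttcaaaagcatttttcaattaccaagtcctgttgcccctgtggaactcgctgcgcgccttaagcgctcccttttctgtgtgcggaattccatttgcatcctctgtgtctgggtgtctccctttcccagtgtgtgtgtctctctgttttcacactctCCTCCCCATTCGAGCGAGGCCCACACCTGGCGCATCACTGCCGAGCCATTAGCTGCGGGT

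The T promoter lay inside its peak over all 250 bases printed. At Gsc the peak took in 99 of the 156 bases printed, and at Evx1 60 of 250. In the other 3 RefSeq promoters, those of Mesp1, Tbx6 and Msgn1, 0 of 250 upstream bases lay in a peak.

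A peak within 1000 bp of a TSS was found at 7 of 7 genes, compared with 70.4% of all protein-coding genes, or 66.1% when only the 5′ end of the gene counted as its TSS. A peak covered the 5′ end itself at 4 of the 7, T, Mixl1, Gsc and Evx1. Over all protein-coding genes this share was 58.8%. The 3 starts without one were those of Mesp1, Tbx6 and Msgn1.

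The peak over the T start was 1803 bp wide (chr17:8433150-8434952) and reached from position -1273 to position 529 relative to the 5′ end. Of all listed peaks, 0.958% were at least as wide, and of the peaks over the 5′ end of a protein-coding gene, 5.88%. Within 1000 bp on either side of the T start, 76.5% of bases were in peaks, a share that 5.19% of protein-coding genes reached. The peak thus lay mostly upstream of T, with only 6.56% of the 8074 bp of the gene body in peaks.

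Gsc showed the opposite layout. Its peak was the widest of the 76, at 2017 bp (chr12:104471413-104473429), and began only 99 bases before the 5′ end. It spanned 90.4% of the 2122 bp gene. Of all listed peaks, 0.464% were at least as wide, and of the peaks over the 5′ end of a protein-coding gene, 2.76%. The same peak covered the start of Gm10000, a long non-coding RNA gene that begins on the opposite strand at the next base, and 2 further peaks of 390 bp and 757 bp at Gm10000 lay 1141 bp and 2019 bp from the Gsc start.

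The Mixl1 peak (1213 bp, chr1:180696462-180697674) straddled the start nearly evenly, from -640 to 572, and was the widest in its window. It held no soft-masked (repeat) base and had a GC content of 64.0%. Of the 2 kb around the Mixl1 start 60.6% was in peaks, which 22.1% of protein-coding genes reached.

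At Evx1, 4 peaks fell within the gene and covered 52.7% of its 4881 bp. The first (1007 bp, chr6:52313438-52314444) ran from -60 to 946 and the second (711 bp, chr6:52314447-52315157) from 949 to 1659, so only 2 bases separated them. Both were also within 1000 bp of a start of Evx1os, the antisense RNA gene that starts inside Evx1. The other 2, of 226 bp and 686 bp, were centred on coding exon sequence. The last of these had the highest GC content of all 76 peaks, 73.0%.

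Mesp1 had a peak within the gene and none over its GENCODE start. Its peak (1101 bp, chr7:79792480-79793580) began 208 bp inside the gene and took in 71.1% of the 1548 bp gene body. This distance depended on the annotation, since RefSeq places the Mesp1 start 198 bp further in, 10 bp from the peak. Msgn1, a gene of 613 bp, held 2 small peaks of 158 bp (chr12:11208750-11208907) and 358 bp (chr12:11208278-11208635), 65 bp and 337 bp from its start, which together covered 70.8% of the gene. Both were narrower than the median of all promoter-proximal peaks, 815 bp.

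Tbx6 was the only 1 of the 7 with no peak in its gene body. Its nearest peak was 205 bp wide (chr7:126780604-126780808), ended 675 bp upstream of the start, and was followed at 1116 bp by another of 335 bp (chr7:126780033-126780367). That second peak was centred on an untranslated exon of the neighbouring gene Ypel3. With a limit of 500 bp, or with peaks of at least 300 bp, Tbx6 was the gene that dropped out and 6 of 7 remained. Of the 2 kb around the Tbx6 start 10.2% lay in peaks, below the median of all protein-coding genes, 42.1%. Msgn1, at 25.8%, and Mesp1, at 39.6%, were also below that median, and T, Mixl1, Gsc and Evx1 were above it. The median over the 7 genes was 52.9%.

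**Figure D1:**
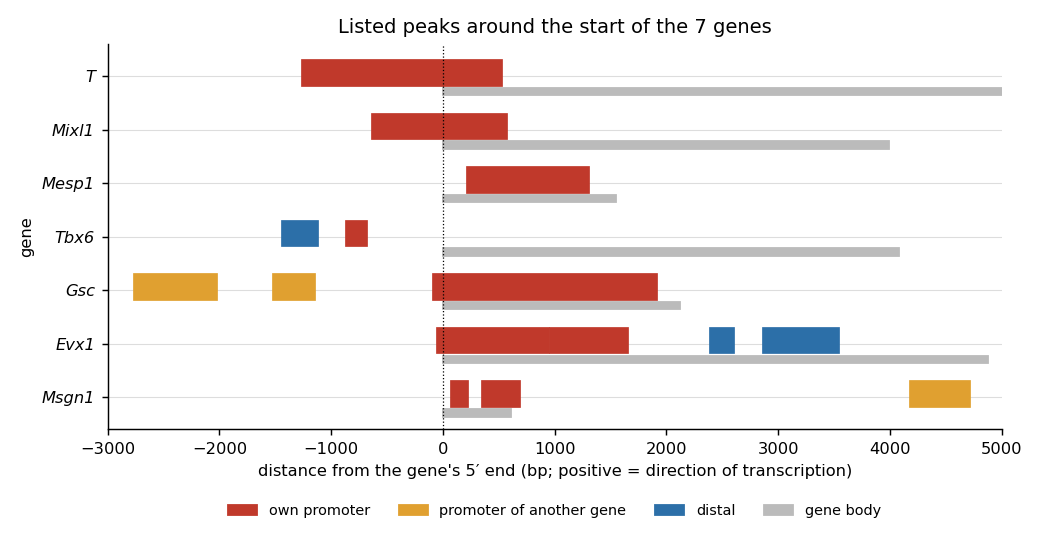
Listed peaks around the 5′ end of each gene. The horizontal axis is the distance from the 5′ end in bp, positive in the direction of transcription, the grey bar is the gene body (that of T runs past the right edge), and coloured boxes are peaks by class. The T peak lies mostly upstream of the start and the Gsc peak mostly downstream, the 2 Evx1 peaks drawn as 1 block are 2 bases apart, and Tbx6 has no peak over its gene body.

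Gene bodies as a whole lay mostly outside the listed peaks. The median protein-coding gene had 3.65% of its body in peaks, and among the 4141 genes of at most 5000 bp, which is the size of all members but T, the median was 0 with an upper quartile of 23.3%. Of those short genes, 53.1% had no base of the body in a peak. Gsc, Mesp1, Msgn1 and Evx1 lay above that quartile at 90.4%, 71.1%, 70.8% and 52.7%. The comparison was not matched for length, and Msgn1 (613 bp), Mesp1 (1548 bp) and Gsc (2122 bp) are far shorter than its limit. Mixl1, at 14.4%, and Tbx6, at 0, lay below it.

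The number of peaks per gene ran from 5 at Mixl1 to 18 at Tbx6, with 13 at T, 11 at Gsc, 11 at Msgn1, 9 at Mesp1 and 9 at Evx1. The median was 11, against 10 over all protein-coding genes, whose quartiles were 4 and 15. Tbx6, whose count 15.2% of protein-coding genes reached or passed, was above the upper quartile, and the other 6 were between the quartiles. As a group these genes were thus near the middle of the genome in the number of listed peaks around them.

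**Figure D2:**
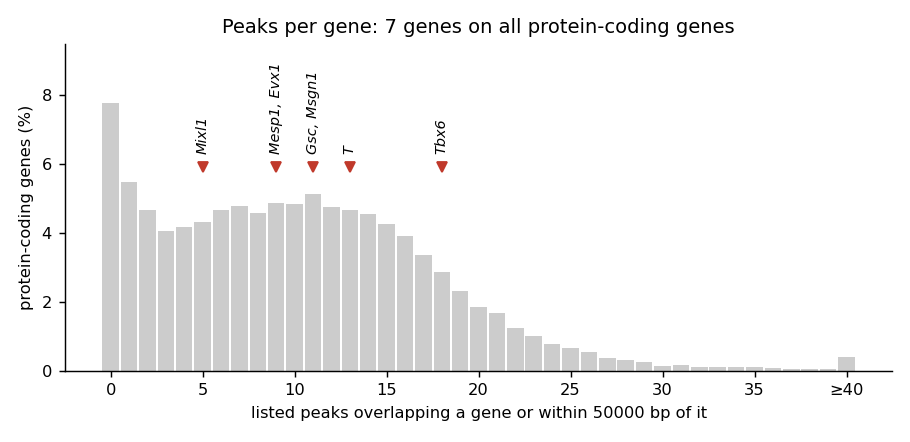
Number of listed peaks that overlap a gene or lie within 50000 bp of it. Grey bars give the percent of the 21938 protein-coding genes with each number (genes with 40 or more are pooled in the last bar), and red triangles mark the 7 genes, which run from 5 for Mixl1 to 18 for Tbx6.

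Other genes were set beside them from lists that were also chosen with earlier results of these data known. Of 20 other primitive streak and mesoderm genes, 19 had a peak within 1000 bp of a TSS, compared with 70.4% of all protein-coding genes. Their median was 11 peaks with a range of 4 to 23. The exception was Hes7, an oscillating gene of the segmentation clock. Of 8 endoderm genes 7 had such a peak, with a median of 8 peaks, and of 8 neural genes all 8, with a median of 10. The 8 ES cell marker genes had a median of 18.5 peaks, with a range of 7 to 29. Among the 7 genes only Tbx6, with 18, was above the range of the endoderm list, whose highest count was 16.

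The counts differed in what the peaks belonged to. Of the 76 peaks, 9 were at the promoter of a member (within 1000 bp of its TSS), 24 at the promoter of another gene and 43 were distal to every annotated TSS. The promoter-proximal share was therefore 43.4% (33 of 76), compared with 25.1% of all listed peaks. The windows were placed on genes while the list also holds peaks far from genes, so a higher share was in part built in. No share is given for listed peaks near genes in general. Tbx6 alone held 13 of the 24 peaks at promoters of other genes, and without Tbx6 the promoter-proximal share was 32.8%.

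The Tbx6 window held the starts of 7 other protein-coding genes. They included Mapk3, which encodes the kinase ERK1, Ppp4c, a phosphatase subunit, and Aldoa, the glycolytic enzyme aldolase A. The widest peak of the window, 1168 bp (chr7:126798842-126800009), was at an Aldoa start and not at Tbx6, and a peak of 1004 bp was at Ppp4c. Distal peaks numbered only 4 of 18.

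At Mesp1, 2 of 9 peaks were at promoters of other genes. The first, of 1173 bp, was at Mesp2, its close relative in somite segmentation, 8 bp from the Mesp2 start, and the second, of 781 bp, was at the shared start region of Pex11a and Wdr93. The widest, 1191 bp (chr7:79798943-79800133), was neither: it lay 5155 bp upstream of Mesp1 in intergenic sequence, between the 2 Mesp genes. Downstream, 3 more distal peaks lay 7118 bp, 12293 bp and 21480 bp from the Mesp1 start, of 687 bp, 1037 bp and 365 bp. The 2 outermost upstream peaks, of 201 bp and 334 bp, were 24775 bp and 39201 bp away.

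At T, 10 of 13 peaks were distal. Upstream of T, 8 peaks sat 12502 bp to 47484 bp from the start, all within the span of the neighbouring gene T2, and 2 of them were at starts of the RNA gene Gm16702. The next widest after the promoter peak was 712 bp, 25028 bp upstream. Downstream lay 4 peaks, which began 9849 bp, 27144 bp, 29202 bp and 34222 bp from the 5′ end, of 151 bp to 525 bp, all intergenic. No peak was listed between the promoter peak and 12502 bp upstream.

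Gsc and Evx1 had no other protein-coding start in their windows, and most of their peaks were distal, 8 of 11 and 7 of 9. The distal peaks of Gsc were mostly on the downstream side, where 6 intergenic peaks lay 19572 bp to 45941 bp from the start, the widest 1011 bp (chr12:104440009-104441019). Upstream there were only a 150 bp peak and a 329 bp peak, 8717 bp and 11846 bp away, beyond those at Gm10000. Evx1 lies beside the HoxA cluster, and its distal peaks outside the gene lay mostly on that side, 4 upstream peaks of 664 bp to 1060 bp, the widest (chr6:52305653-52306712) 6786 bp from the start. On the other side there was a single peak of 273 bp, 8715 bp from the 5′ end.

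At Msgn1, 6 of 11 peaks were distal. The widest (808 bp, chr12:11216277-11217084) lay 7305 bp upstream. Of the 11 peaks 6 were under 300 bp, and none reached 1000 bp, which held for no other member. The RNA gene 9530020I12Rik had a peak of 548 bp at its start, 4170 bp from the Msgn1 start, and 2 peaks of 205 bp and 180 bp lay within 1000 bp of a start of Gen1, which encodes a resolvase of DNA junctions.

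Mixl1 had the emptiest window. Apart from its promoter peak there were 4 peaks in all: 425 bp downstream of the gene at 41768 bp from the start, 475 bp near the processed pseudogene Gm8101, 1108 bp (chr1:180725520-180726627) over the start of Acbd3, which encodes a Golgi protein, and 191 bp at 46401 bp upstream. No peak lay between the promoter peak and 23267 bp upstream, nor on the downstream side nearer than 41768 bp from the start. With a limit of 25000 bp only 2 peaks were left, and with 100000 bp there were 18. Of protein-coding genes 73.9% had at least as many peaks.

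**Figure D3:**
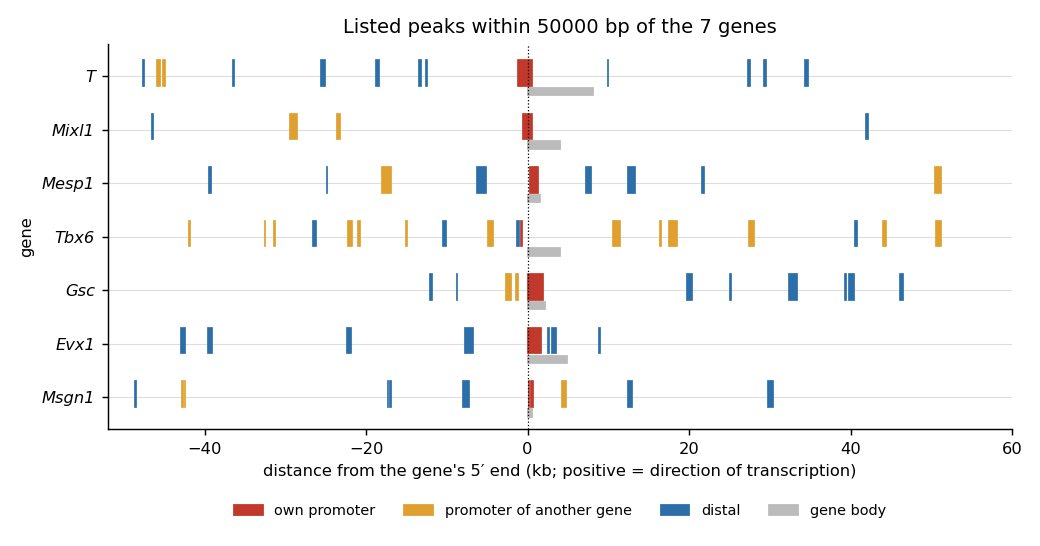
Listed peaks in the window of each gene. The horizontal axis is the distance from the 5′ end in kb, positive in the direction of transcription, the grey bar is the gene body, and boxes are peaks at the gene's own promoter (red), at the promoter of another gene (orange) or distal (blue). Tbx6 has 13 orange boxes, Evx1 none, and the Mixl1 promoter peak has no other peak nearer than 23267 bp upstream or 41768 bp downstream.

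The 76 peaks had a median width of 473 bp, with quartiles of 274 bp and 724 bp, compared with 415 bp, 233 bp and 708 bp over all listed peaks. Peaks of 1000 bp or more made up 17.1% (13 of 76), compared with 12.5% of the list. The 9 peaks at members' own promoters ran from 158 bp to 2017 bp, with a median of 1007 bp. The 24 at promoters of other genes had a median of 498.5 bp. The 43 distal ones had a median of 371 bp, compared with 352 bp for all distal peaks. Among distal peaks 4 reached 1000 bp, of which 2 were at Mesp1, 1 at Gsc and 1 at Evx1, or 9.30% compared with 4.32% of all distal peaks. The 33 promoter-proximal peaks went the other way, with a median of 548 bp compared with 815 bp for all promoter-proximal peaks. Among them 27.3% reached 1000 bp, compared with 36.9% of all promoter-proximal peaks.

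**Figure D4:**
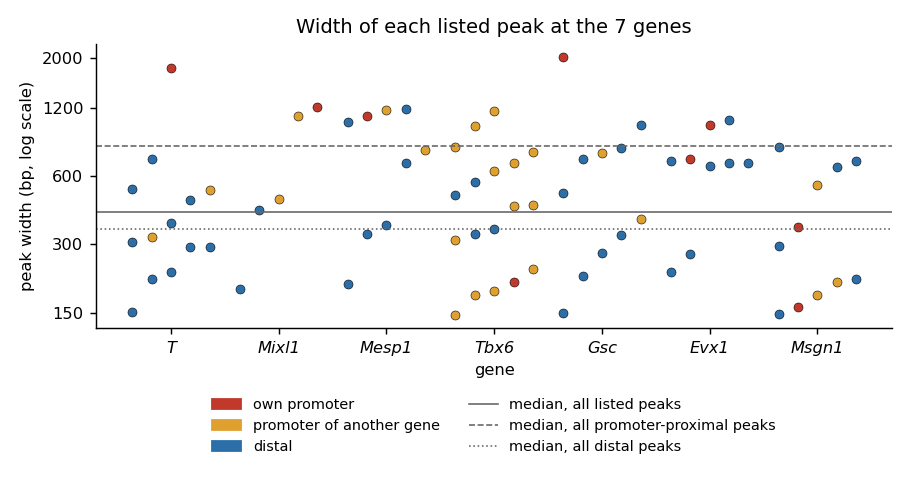
Width of each of the 76 peaks in bp on a log scale, by gene. Points are single peaks coloured by class, and lines give the median of all listed peaks (415 bp), of all promoter-proximal peaks (815 bp) and of all distal peaks (352 bp). The Gsc and T promoter peaks are the widest, while both Msgn1 promoter peaks, the Tbx6 one and the second Evx1 one lie under the line for promoter-proximal peaks.

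In base composition, the peaks had a median GC content of 55.2%, compared with 50.1% over all listed peaks. The distal ones alone had 52.7%, compared with 48.6% of all distal peaks. The ratio of observed to expected CpG, which is high in CpG islands and low in most of the genome, had a median of 0.345, against 0.259 in the list. It was 0.881 in the Gsc promoter peak, 0.803 in that of Mesp1, 0.774 in that of Mixl1, 0.680 in that of T and 0.605 and 0.470 in the 2 at Evx1. The 2 Msgn1 peaks, with 0.475 and 0.193, and the Tbx6 peak, with 0.524, were lower than the first 4. The median soft-masked share was 7.80%, against 10.5% in the list, and 2.38% in the 9 peaks at members' own promoters.

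Consensus words of factors that act in ES cells and in the streak were then searched on both strands of the peaks. For OCT4::SOX2, the joint site of both factors, the search word was CATTGTT directly followed by the octamer ATGCAAAT, with up to 2 mismatches. None of the 76 peaks had a match, compared with 0.243% of all listed peaks (249 of 102373), a share that comes to fewer than 1 peak in 76. The word is strict. The paper's own motif search found the canonical motif at far more loci among its OCT4- and SOX2-dependent regions. A peak without the word may therefore still hold such a site. With 3 mismatches 2 peaks matched, both at Msgn1, compared with 2.00% of all peaks. The exact octamer ATGCAAAT was found in 1 peak, at the Ypel3 start in the Tbx6 window, compared with 2.56% of all peaks. Outside peaks, it was also in the RefSeq promoter of Evx1 (chr6:52313372-52313379, minus strand), at -126 from the start, as in 1.74% of all RefSeq promoters. A word of SOX factors, CCATTGT or CCTTTGT, was found in 10 peaks (13.2%), compared with 21.3% of all, and 4 of the 10 were at T. Per 10 kb of peak sequence this came to 2.33 words, against 4.85 in the list.

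The TCF/LEF word ATCAAAG, through which Wnt signalling acts, was present in 7 peaks (9.21%), compared with 7.89% of all listed peaks. There were 9 words in the 42893 bp of the 76 peaks, and the list as a whole held 1.58 per 10 kb. The sites are printed because CHIR99021, which was in the medium of all groups, activates this pathway. Each line gives the strand read 5′ to 3′, with the word in capitals between 10 flanking bases, and the coordinates are those of the word in GRCm38.
T promoter peak, chr17:8434021-8434027, minus strand: ttgcacctccATCAAAGcggcggggcg
T distal peak, chr17:8421779-8421785, plus strand: tctccatgagATCAAAGgactgatgag
Mixl1 promoter peak, chr1:180697090-180697096, plus strand: cggcggcgccATCAAAGgcgtgggtgc
Mixl1 promoter peak, chr1:180697445-180697451, plus strand: gcctgtcaccATCAAAGgcgctattta
Tbx6 upstream peak, chr7:126780093-126780099, plus strand: caaccacatgATCAAAGacaacggctg
Tbx6 window, Ppp4c start, chr7:126792095-126792101, minus strand: ctgcgagctgATCAAAGagagcgaagt
Evx1 distal peak, chr6:52270822-52270828, minus strand: ggccaaaagaATCAAAGgaaagcgttt
Evx1 distal peak, chr6:52270950-52270956, minus strand: atttaaacacATCAAAGgtcataaaaa
Msgn1 distal peak, chr12:11225892-11225898, plus strand: ggaccacagcATCAAAGctcacaggga

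The T promoter peak had its word at -402 from the 5′ end and a SOX word, CCATTGT, at -315, both upstream of the promoter printed above. The Mixl1 peak had TCF/LEF words at -56 and -411, and between them, at -239, the FOXH1 word. Both Evx1 words fell in 1 peak, 42371 bp from the start. Gsc and Mesp1 had none in any of their peaks. Outside peaks, the RefSeq promoters held 2 more TCF/LEF words, given here because no upstream base of those promoters lay in a peak.
Mesp1, chr7:79793615-79793621, plus strand: tcatcagcatATCAAAGccggctcgag
Msgn1, chr12:11209145-11209151, minus strand: gatgctaattATCAAAGaggggaaagt
They started at -31 and -203 from the RefSeq starts. Of the 32851 RefSeq promoters of this length 3.73% held the word, and 2 of the 6 members matched did. The word shares no full overlap with the SOX words, although CTTTG is common to its reverse strand and CCTTTGT.

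Words linked to Nodal signalling and to T-box factors were rare. The FOXH1 word AATCCACA was in 2 peaks (2.63%), compared with 1.74% of all: the Mixl1 promoter peak and the peak at the Mesp2 start in the Mesp1 window. The palindromic SMAD word GTCTAGAC was in 1 peak (1.32%), compared with 0.537%, a 329 bp distal peak 11846 bp upstream of Gsc. The T-box word AGGTGTGA was in 1 peak, compared with 2.53%, again the peak at Mesp2.
Mixl1 FOXH1 word, chr1:180697273-180697280, plus strand: tccaaccaccAATCCACAtacctcgaac
Mesp2 FOXH1 word, chr7:79810751-79810758, plus strand: gaggggtcagAATCCACAcctctgcaaa
Mesp2 T-box word, chr7:79810858-79810865, minus strand: tctggactaaAGGTGTGAggtggtcccc
Gsc SMAD word, chr12:104485250-104485257, plus strand: cctagctcagGTCTAGACctagggagct
These 4 sites are shown as the only matches of their words in the 76 peaks. Among the RefSeq promoters, that of Mesp1 also held the T-box word, as did 1.28% of all promoters.

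Of the other words, that of KLF factors, GGGTGTGGC, was in 2 distal peaks, 1 at Mesp1 and 1 at Msgn1, or 2.63% compared with 3.44% of all. The ESRRB word TCAAGGTCA was in 1 peak, the widest at Msgn1, compared with 2.82%. The AP-2 word GCCTNAGGC was in 3 peaks (3.95%), 2 at Mesp1 and 1 at T, compared with 3.31%. With counts this small a difference of 1 or 2 peaks from the share of the list cannot be read as a difference.

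The CTCF consensus, that of the factor that marks chromatin loop ends and boundaries, was the most frequent word, in 13 peaks (17.1%) with up to 1 mismatch, compared with 13.0% of all. Every gene but Evx1 had at least 1, and T, Mesp1 and Tbx6 had 3 each. Of the 13 peaks 9 were distal. The perfect matches are printed to show where they stand around the genes, with the consensus in capitals.
T, downstream, chr17:8468890-8468903, plus strand: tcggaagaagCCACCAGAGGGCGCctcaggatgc
Mesp1, downstream, chr7:79780708-79780721, plus strand: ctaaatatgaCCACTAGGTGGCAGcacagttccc
Tbx6, downstream, chr7:126822010-126822023, plus strand: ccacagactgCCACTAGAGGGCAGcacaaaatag
Tbx6, downstream, chr7:126832107-126832120, plus strand: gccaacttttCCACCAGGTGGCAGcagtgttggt
Gsc, downstream, chr12:104427180-104427193, minus strand: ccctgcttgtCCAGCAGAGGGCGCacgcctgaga
Gsc, downstream, chr12:104448355-104448368, minus strand: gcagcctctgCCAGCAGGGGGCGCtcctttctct
All 6 perfect matches were downstream of the gene. The 2 at Gsc were 24925 bp and 45941 bp from its start by the edge of their peaks, and the 1 at T was in the outermost downstream peak, which began 34222 bp from the 5′ end. Matches with 1 mismatch were not confined to that side. They lay upstream at T, Mixl1 and Mesp1, inside the Mesp1 promoter peak, and downstream at T, Tbx6 and Msgn1.

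**Figure D5:**
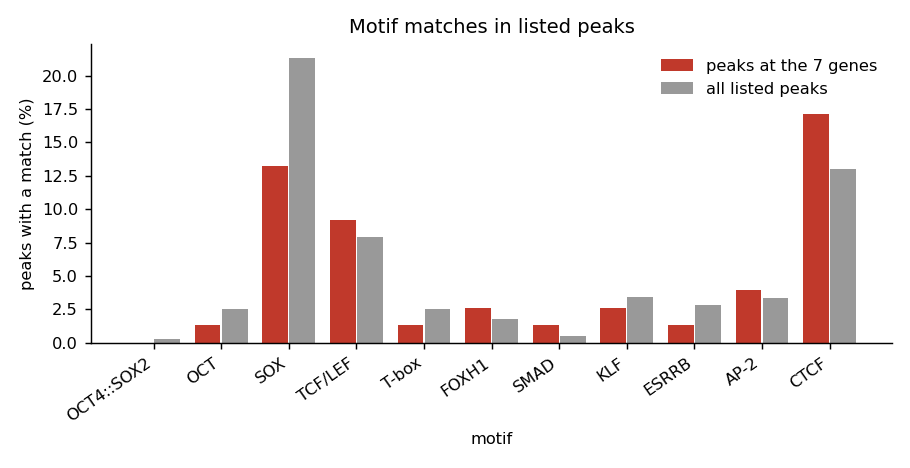
Percent of peaks with at least 1 match to each motif, for the 76 peaks at the 7 genes (red) and all 102373 listed peaks (grey). The SOX word is less frequent at the 7 genes (13.2% and 21.3%), CTCF and TCF/LEF are close to the list or above it, and the bars of the rarer words rest on 0 to 3 peaks.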

How the data were processed

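ATAC-seq libraries of dox-treated and untreated ZHBTc4 cells were sequenced by the authors, who per the submitters' processing notes aligned reads to GRCm38 (mm10) with STAR 2.6.1c, removed duplicates with Picard, called peaks with MACS2 2.1.1.20160309 and merged the peaks of the dox-treated libraries with BEDTools. The deposited file used here has 3 columns, chromosome, start and end, without any per-library value. The study's methods name a width filter, yet 7 listed peaks exceed 5000 bp (0 at the 7 genes). Whether input and blacklisted regions were removed could not be tested.

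Genes and 132629 TSS positions were taken from GENCODE M21, and sequences from GRCm38.p6. Coordinates count from 1. The members and gene lists were chosen with earlier results of these data known. The rule named the 7 genes, their nearest and widest peaks, and neighbours with a promoter peak. Motifs were searched as exact words, apart from OCT4::SOX2 (up to 2 mismatches) and CTCF (up to 1). The search code was checked on simulated sequence, where 100% of 200 planted OCT4::SOX2 words with up to 2 mismatches were found. This does not show how many real sites the word finds. No test was run. Alternatives changed the window, promoter distance, width minimum, joining of peaks within 100 bp, repeat limit and motif settings. Python 3.11.15, numpy 2.4.6, scipy 1.17.1 and matplotlib 3.10.9 were used.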

Additional observations from a re-analysis of the deposited data

How the results depend on the processing

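No paired analysis was possible because a merged peak carries no values for separate replicates. For the same reason the limma fit of MD-OCT4 against MD*-OCT4, its fit without the block and the fits that leave out a replicate were not run. Of 133 alternative values computed, 101 stayed within the limits set (1.5 times for a count, the 95% interval for a median or share) and 32 did not. These limits are wide for so few genes. A median of 7 peaks per gene within 25000 bp, against 11 in the main setting, counted as within them. The tally is therefore no measure of how robust the values are.

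Within 25000 bp there were 48 peaks in place of 76, with 7 at T, 2 at Mixl1, 11 at Tbx6, 7 at Gsc and 7 at Msgn1. Within 100000 bp there were 147, a median of 21 per gene, with 21 at T, 18 at Mixl1, 23 at Mesp1, 17 at Gsc and 25 at Evx1. With peaks of at least 300 bp, T had 8, Msgn1 5, and the median width was 685 bp. With TSS of protein-coding transcripts only, 28.9% of peaks were promoter-proximal. The 25.1% of all listed peaks counts the TSS of all transcripts, so it cannot be set beside this share. Leaving out each gene in turn gave a share of 32.8% (without Tbx6) to 47.6%. Distal peaks alone had a median GC content of 52.7%.

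With 3 mismatches 2 peaks matched OCT4::SOX2. In the central 200 bp the SOX word was in 6 peaks, TCF/LEF in 4, T-box and FOXH1 in 0, AP-2 in 1 and CTCF in 7. No share of all listed peaks is given for this setting, so these counts cannot be set beside the list. In distal peaks OCT, T-box and FOXH1 were in 0, compared with 2.52%, 2.41% and 1.73% of all distal peaks. The SOX word was in 6 (14%, compared with 21.7%), TCF/LEF in 4 (9.3%, compared with 7.99%) and AP-2 in 1 (2.33%, compared with 3.1%). With shares this small, the counts of 0 cannot be read as a difference. A smaller window or fewer bases searched gives fewer matches by construction. Depth and the libraries in which a peak was called are unknown.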
